A study of Mus musculus with 8 samples.

Results

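Cirbp encodes the cold-inducible RNA-binding protein, and Rbm3 encodes a close relative that also responds to cold. Both were listed for this account, selected on earlier results of the dystrophic against normal comparison described here. Members were kept if a probe set, a group of short probes for 1 transcript on the array, was annotated with exactly 1 gene symbol. This rule kept 1 of the 2 genes, Cirbp, out of 12393 genes with such a probe set. Rbm3 had 0 probe sets of its own. The 1 probe set that names it carried 2 symbols, Rbm3 and the pseudogene Rbm3-ps, so the values below cannot be assigned to either and are given only as those of the shared probe set.

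RNA came from the diaphragm, the main breathing muscle, of mice aged 8 weeks. The dystrophic group was dy/dy mice, which lack normal amounts of the laminin α2 chain of the muscle basement membrane, and the normal group was described only as control mice for dy/dy. Each group had 4 arrays, each with a pool of RNA from the muscle of 3 mice (12 mice in all per group), so the spread between single mice is not seen. The sources used here do not give strain background, sex, body temperature or the time of day at which tissue was taken.

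Both proteins have an RNA recognition motif followed by a tail rich in glycine and arginine. Their transcripts accumulate when cells are cooled mildly and fall when cells are warmed, opposite to heat shock genes, and mild hypoxia can also raise them. In mouse fibroblasts CIRBP follows the daily rhythm of body temperature and binds transcripts of clock genes, and in mouse brain RBM3 acts on synapse regrowth through Rtn3. CIRBP released from stressed cells can act as an alarm signal on macrophages through the receptor complex of TLR4.

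The upstream region of Cirbp is shown because part of the response of this gene to cooling has been reported to act through it. Its activity was not tested here. RefSeq places one start of Cirbp on the plus strand of GRCm38.p6, and the window chr10:80167589-80167888 covers 250 bases before that start and 50 after it. Capitals mark matches on either strand to TCCCCGCC, described as a mild cold response element, and to the GC box GGGCGG.
Cirbp upstream window: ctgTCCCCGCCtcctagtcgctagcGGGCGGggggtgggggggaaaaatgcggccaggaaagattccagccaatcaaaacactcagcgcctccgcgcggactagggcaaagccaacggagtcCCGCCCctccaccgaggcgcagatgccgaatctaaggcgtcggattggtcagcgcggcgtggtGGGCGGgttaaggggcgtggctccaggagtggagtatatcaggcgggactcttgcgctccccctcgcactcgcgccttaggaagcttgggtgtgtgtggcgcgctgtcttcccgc

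The element TCCCCGCC occurred once in this window, starting 247 bases before the annotated start, and 5.38% of 32851 promoter windows of the same length held it on either strand. GGGCGG occurred 2 times on the plus strand and 1 time on the minus strand, and 35.7% of windows held it. No match of one overlapped a match of the other here. CCAAT, the letters of the CCAAT box, occurred 1 time on each strand, against 37.4% of windows that held it. The paired heat shock element GAANNTTC and the E-box CACGTG, to which clock proteins bind, had 0 matches in these letters, and 7.86% and 7.15% of windows held them. The window had 65.7% G and C bases, and the median window 52.7%. A second annotated start of Cirbp lies downstream, and its window had 0 matches to TCCCCGCC and, to the GC box, 3 on the plus strand and 1 on the minus strand. The promoter table has 0 windows for Rbm3.

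Values are MAS5 signals, a linear brightness per probe set, rescaled so that all arrays share 1 trimmed mean. Before rescaling, the arrays' median signals lay between 188 and 212 on 7 arrays and at 141 on normal replicate 4. Lama2, which encodes laminin α2, checks the labels: its signal was 270 ± 46.1 in dystrophic and 846 ± 101 in normal pools (SD, n = 4 each), and the groups did not overlap. Skeletal muscle markers were present in every pool, with a summed signal of 170619 to 193926 in dystrophic and 171936 to 273727 in normal pools over 10 genes. Liver markers stood apart in dystrophic replicate 3, at a summed signal of 61564 over 11 genes, against 1971 to 7000 in the other dystrophic pools and 1342 to 4133 in normal pools. The labels name no batch. Signals of the poly-A spike-ins, RNAs added before labelling, lay at 3 levels, and arrays at a like level are called a batch here. This grouping is inferred from those signals. Both groups' replicate 1 lay at a geometric mean of 543 to 588. Their replicate 3 lay at 307 to 354, and their replicates 2 and 4 lay at 125 to 172.

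Cirbp, measured by 1 probe set, had a signal of 521, 618, 756 and 687 in dystrophic replicates 1 to 4. In normal replicates 1 to 4 its signal was 344, 303, 426 and 206. All 4 dystrophic pools lay above all 4 normal pools, and the lowest dystrophic pool exceeded the highest normal pool by 95.0 signal units. The means were 646 ± 100.2 in dystrophic and 320 ± 91.8 in normal pools (SD, n = 4 each), a ratio of 2.02. The lowest value, 206 in normal replicate 4, was still well above the TrpnX negative controls, which reached 32.2.

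On the scale log2(signal + 16), where the offset damps the noise of dim values, the Cirbp difference was 1.01 (SE 0.21), dystrophic minus normal. Because this comparison was among the values on which Cirbp was chosen, the difference is a description and carries no p-value here. In the limma fit across all probe sets 0 of the 1 Cirbp probe set passed an adjusted p of 0.05 and 1 of 1 passed an unadjusted p of 0.05. Of 13575 probe sets tested, 0.457% passed the adjusted threshold with a higher dystrophic value and 5.60% the unadjusted one. Groups without overlap and higher in dystrophic pools were seen in 3.87% of them. Nothing is read from these counts about Cirbp.

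The Cirbp difference lay above 0 in each spike-in batch. It was 0.58 in the batch of replicate 1, 0.80 in that of replicate 3 and 1.33 in that of replicates 2 and 4. The first 2 of these batches held 1 array of each group and so have no error of their own. Without dystrophic replicate 3, the pool with high liver transcripts and also the highest Cirbp signal, the difference was 0.93. Without normal replicate 4, the pool with the lowest Cirbp signal and the highest sum of muscle markers, it was 0.82, and without both it was 0.75.

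**Figure D1:**
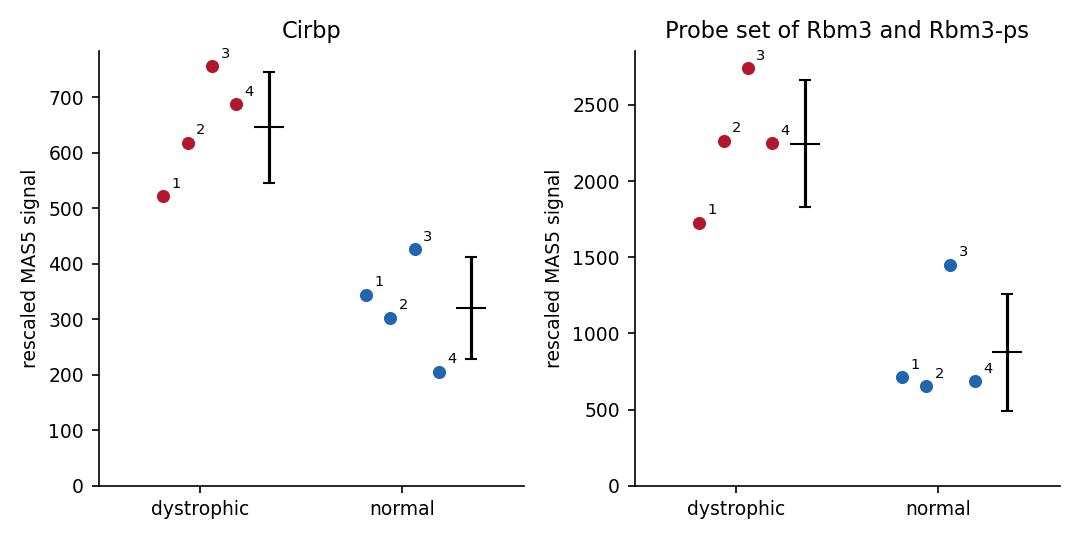
Rescaled MAS5 signal (linear, arbitrary units) of Cirbp (left) and of the probe set shared by Rbm3 and Rbm3-ps (right). Each point is 1 pool, labelled with its replicate number, and the bar beside each group is the mean ± SD (n = 4). Dystrophic pools lie between 521 and 756 for Cirbp and normal pools between 206 and 426, with no overlap in either panel.

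**Figure D2:**
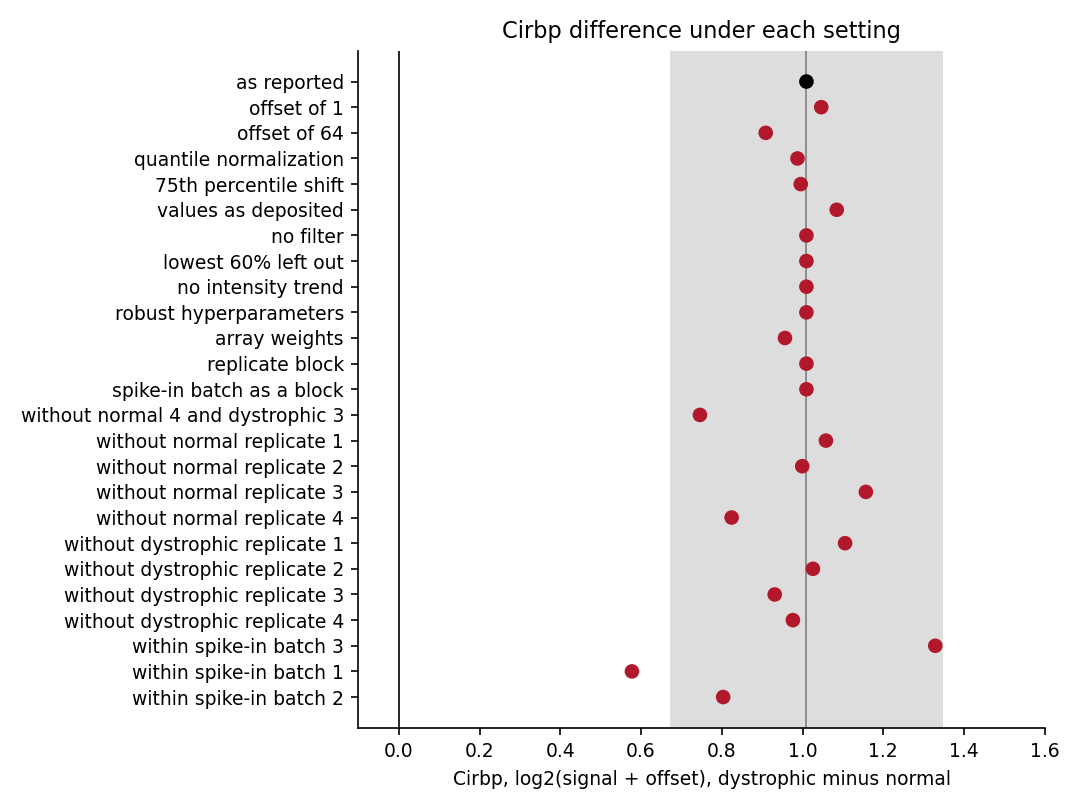
Log2 difference of Cirbp, dystrophic minus normal, as reported (black) and under each other setting of the processing (red). The grey band is 1 pooled within-group SD on each side of the reported value of 1.01, and all points lie above 0, with the lowest at 0.58 in the batch of replicate 1.

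The shared probe set of Rbm3 and Rbm3-ps had a signal of 1728, 2266, 2744 and 2248 in dystrophic replicates 1 to 4. In normal replicates 1 to 4 it had 711, 654, 1452 and 686. Normal replicate 3 stood well above the other 3 normal pools, but below every dystrophic pool. The means were 2246 ± 415 in dystrophic and 876 ± 384 in normal pools (SD, n = 4 each), and the log2 difference was 1.41 (SE 0.24). It was 1.26, 0.91 and 1.73 within the batches of replicate 1, of replicate 3 and of replicates 2 and 4. As this probe set was also named with results of the comparison in view, no p-value is given.

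Deviations from the group mean do not use the difference between groups. On the log2 scale Cirbp deviated by -0.29, -0.05, 0.24 and 0.10 in dystrophic replicates 1 to 4 and by 0.14, -0.03, 0.44 and -0.56 in normal replicates 1 to 4. The shared probe set deviated by -0.36, 0.03, 0.31 and 0.02 in the dystrophic and by -0.21, -0.33, 0.80 and -0.26 in the normal replicates. Replicate 3 had the highest deviation of its group for both probe sets, in dystrophic and in normal pools alike. Across the 8 arrays Pearson's r of these deviations was 0.76 (exact two-sided permutation within groups, p = 0.104, n = 8) and Spearman's rho was 0.74 (exact permutation p = 0.066, n = 8). This was the 1 relation between probe sets given a p-value, and neither coefficient passed 0.05 on these values. On values as deposited, quantile-normalised values and values shifted to a common 75th percentile rho was 0.83, 0.81 and 0.83 (exact permutation p = 0.0313, 0.0347 and 0.0243, n = 8), while r did not pass there. As deposited, normal replicate 4 had a trimmed mean of 400.2 against 500.2 on the other arrays. That scale lowers both probe sets together on that array. Without the 2 arrays farthest from the median Cirbp deviation, normal replicates 3 and 4, r was 0.95 (exact permutation p = 0.0417, n = 6) and rho was 0.83 (exact permutation p = 0.125). With the spike-in batch also removed, r was 0.56, given without a p-value because the arrays of replicate 1, and those of replicate 3, then deviate by equal amounts in opposite directions.

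**Figure D3:**
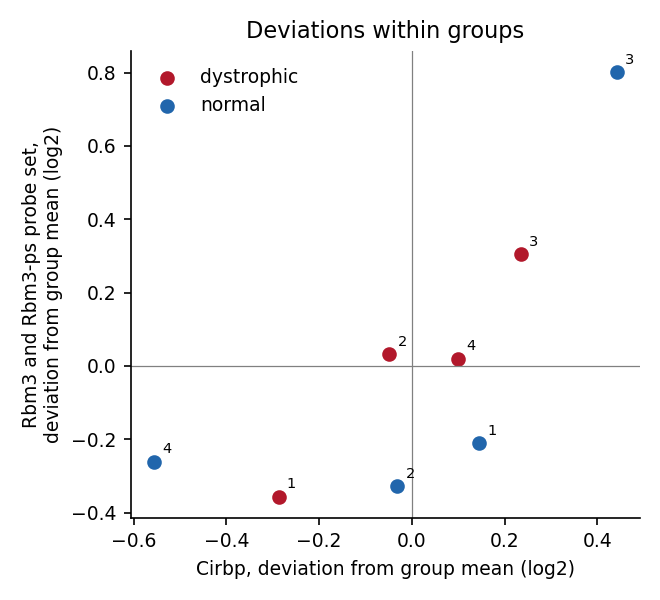
Deviation from the group mean, in log2 units, of Cirbp (horizontal axis) and of the probe set shared by Rbm3 and Rbm3-ps (vertical axis). Each point is 1 pool, with dystrophic pools in red and normal pools in blue, numbered by replicate. Replicate 3 lies at the upper right of each group, and normal replicate 4 lies low on the Cirbp axis at -0.56.

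The genes most like Cirbp were found by Pearson's r of log2 values over the 8 arrays, among 7008 genes with 1 representative probe set each and a mean signal of at least 192, the median of all probe sets. This r includes the difference between groups, so each is given with r of the deviations within groups and is a description. Both coefficients include normal replicate 4, where Cirbp deviated most, by -0.56, and no r without it is given for these genes. Atraid had r = 0.98 (0.96 within groups) and a signal of 1021 ± 52.4 in dystrophic and 750 ± 140 in normal pools (SD, n = 4 each). Rfwd3, a ubiquitin ligase of DNA repair, had r = 0.97 (0.97 within groups), and Col16a1, a collagen that associates with fibrils, r = 0.96 (0.90 within groups). Ctsa, the lysosomal protective protein cathepsin A, had r = 0.96 (0.87 within groups). Cyba, a subunit of the phagocyte NADPH oxidase, had r = 0.95 (0.85 within groups).

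Among these 5, limma called Cyba at an adjusted p of 0.05, where 0.597% of all genes tested were called higher. These genes were picked by an r that includes the group difference, so nothing is read from this call. The signal of Cyba was 728 ± 76.9 in dystrophic and 338 ± 55.4 in normal pools (SD, n = 4 each). On the log2 scale the difference was 1.08 (SE 0.15). The other 4 had log2 differences of 0.26 to 0.51 and were not called. The shared probe set of Rbm3 and Rbm3-ps had r = 0.94 with Cirbp, and 12 of the 7008 genes had a higher r.

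The 3 genes with the lowest r were highest where Cirbp was lowest, in normal replicate 4. Cxcl12, a chemokine, had r = -0.99 (-0.95 within groups) and a signal of 1732 ± 116 in dystrophic and 2627 ± 499 in normal pools (SD, n = 4 each). Ubqln1, a ubiquilin that carries proteins to the proteasome, had r = -0.98 (-0.93 within groups), and the ubiquitin ligase Rnf123 had r = -0.97 (-0.90 within groups). Limma called none of the 3, where 0.0487% of all genes tested were called lower, and nothing is read from this count. Their log2 differences were -0.58, -0.23 and -0.41 in that order. For the shared probe set the 5 genes with the highest r were Cbr3 (0.98), Plxdc2 (0.98), Gpr153 (0.96), Tmsb10 (0.96) and Naalad2 (0.96), and the 3 lowest were Me1 (-0.98), Shmt2 (-0.96) and Nt5dc3 (-0.94).

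**Figure D4:**
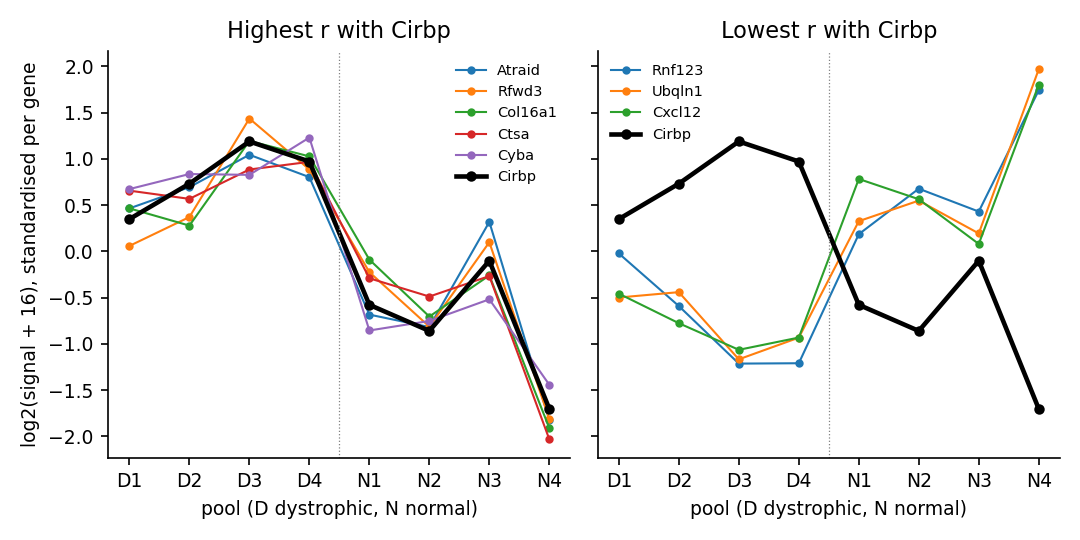
Log2(signal + 16), standardised for each gene over the 8 arrays, for Cirbp (black) with the 5 genes of highest r (left) and the 3 of lowest r (right). Points are pools, dystrophic replicates 1 to 4 (D) and then normal replicates 1 to 4 (N), and lines only join the values of a gene. Normal replicate 4 holds the lowest value of Cirbp and of all 5 genes at left, and the highest of the 3 genes at right.

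Gene lists from the biology of cold-inducible proteins were set beside Cirbp, 11 in all, with 1 probe set per gene. Across all 8214 genes tested, limma called 0.597% higher and 0.0487% lower at an adjusted p of 0.05, and at an unadjusted p of 0.05 the shares were 6.57% higher and 4.19% lower. The median log2 difference over all genes was -0.0076. In each of the 11 lists limma called 0 members at the adjusted threshold, so counts at the unadjusted threshold are given for each. The exception by setting was Tyrobp, in the list of extracellular CIRBP, which was called with the spike-in batch as a term of the fit, with array weights and with robust hyperparameters. List medians were small beside the effect of single arrays, and in 7 of the 11 lists the median turned sign when 1 array was left out, as given with each list. Members with an unadjusted p under 0.05 that are named below, apart from Hspa8, Tef, Pabpc1 and Pgk1, were chosen after their values were seen.

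Heat shock genes lay mostly below 0. Of 24 tested members, 22 had a lower mean in dystrophic pools, against 51.5% of all genes, and the median log2 difference was -0.27, or -0.32 to -0.19 with 1 array left out. At the unadjusted threshold 4 were lower and 0 higher. The mean log2 level of the 24 genes was 10.86, 10.64, 10.59 and 10.76 in dystrophic replicates 1 to 4 and 10.86, 11.26, 10.80 and 10.92 in normal replicates 1 to 4. The groups overlapped, since dystrophic replicate 1 lay within the normal range. Normal replicate 2 had the highest mean, and without it the median difference was -0.19. Hspa8, the constitutive HSP70 chaperone, had 8717 ± 1527 in dystrophic and 11435 ± 2528 in normal pools (SD, n = 4 each), with a difference of -0.38 on the log2 scale (SE 0.17, adjusted p = 0.509 in limma). The small heat shock protein Hspb1 was at -0.19 (SE 0.19). Without normal replicate 4 these values were -0.24 for Hspa8 and -0.07 for Hspb1, and without dystrophic replicate 1 they were -0.47 and -0.35. The cochaperones Ahsa1, at -0.51 (SE 0.15, adjusted p = 0.234), and Fkbp4, at -0.50 (SE 0.14, adjusted p = 0.185), had groups that did not overlap. The share of all probe sets without overlap and lower in dystrophic pools was not counted. The mitochondrial chaperone Hspd1 was at -0.36 (SE 0.15). Body temperature is not given, and its part in these values and in Cirbp was not tested.

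Clock genes had a median of 0.0052 over 14 tested members, but the range was wide, with 3 higher and 2 lower at the unadjusted threshold. With 1 array left out the median ran from -0.05, without dystrophic replicate 2, to 0.12, without dystrophic replicate 1, and it lay below 0 also without normal replicate 1 or dystrophic replicate 3. Dbp, a transcription factor whose level follows the clock, had 893 in dystrophic and 419 in normal pools, a difference of 1.11 on the log2 scale (SE 0.34, adjusted p = 0.252 in limma), with dystrophic pools at 571 to 1391 and normal pools at 250 to 755. Its relative Tef was at 0.55 (SE 0.18, adjusted p = 0.282). Arntl, which encodes BMAL1, the activator of the core clock, had 360 in dystrophic and 618 in normal pools, a log2 difference of -0.82 (SE 0.23, adjusted p = 0.205), and its groups did not overlap. Nfil3, a repressor of the sites that DBP activates, was at -0.77 (SE 0.29), and Per3 at 0.49 (SE 0.21). Nr1d2, a nuclear receptor that represses Arntl, was at 0.10 (SE 0.19). The time at which each pool was collected is not given, and its part in these values and in Cirbp was not tested.

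Among 9 genes reported as targets of CIRBP or RBM3, 1 was higher and 1 lower at the unadjusted threshold, and these were Dbp and Arntl, both also clock genes. The median was -0.023, but 0.05 without dystrophic replicate 3 and -0.11 without dystrophic replicate 4, and it lay above 0 also without normal replicate 2 or dystrophic replicate 1. Rtn3, the RBM3 target at mouse synapses, had 1195 ± 68.2 in dystrophic and 1348 ± 136 in normal pools (SD, n = 4 each), a difference of -0.17 on the log2 scale (SE 0.12, adjusted p = 0.715 in limma). Txn1, thioredoxin, was at 0.03 (SE 0.11).

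Other RNA-binding and processing genes lay near 0. The 24 tested genes of the RBM family had differences from -0.19 to 0.23, with a median of 0.05, or 0.016 to 0.074 with 1 array left out, and 0 members past the unadjusted threshold in either direction. Rbm38 was at 0.09 (SE 0.14) and the splicing regulator Rbm5 at 0.11 (SE 0.21). The 31 hnRNP genes ranged from -0.27 to 0.36 around a median of -0.015, with 1 higher, Ewsr1, and 0 lower at the unadjusted threshold. Hnrnpdl was at -0.09 (SE 0.14) and Pcbp2 at -0.05 (SE 0.12). The hnRNP median lay above 0 without normal replicate 4 and without each dystrophic replicate, at up to 0.06.

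Of 19 SR proteins, which direct splicing, and the kinases that act on them, 1 was higher and 1 lower at the unadjusted threshold. The higher was Clk1, a kinase whose activity rises on cooling, with 1209 in dystrophic and 908 in normal pools, a difference of 0.41 on the log2 scale (SE 0.13, adjusted p = 0.282 in limma) and no overlap. The lower was Srsf10, at -0.32 (SE 0.14). Srsf5 was at -0.02 (SE 0.16) and Srsf2 at -0.04 (SE 0.20). Medians with 1 array left out were -0.031 to 0.023 for the SR list, against -0.0066 over all arrays, and -0.025 to 0.036 for the polyadenylation list, against -0.018. Among 17 polyadenylation factors, 1 was higher at the unadjusted threshold, the poly(A)-binding protein gene Pabpc1, with 4372 ± 366 in dystrophic and 3273 ± 279 in normal pools (SD, n = 4 each) and a difference of 0.42 on the log2 scale (SE 0.12, adjusted p = 0.205 in limma). The nuclear poly(A)-binding protein gene Pabpn1 was at 0.22 (SE 0.35).

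Receptors and response genes of extracellular CIRBP had a median of -0.04 over 15 tested members, but 0.07 without normal replicate 4 and 0.0043 without dystrophic replicate 3. Tlr4 was at 0.17 (SE 0.20) and Ly96, which encodes its partner MD-2, at 0.02 (SE 0.18), both named after their values were seen. Tyrobp, a signalling adaptor of myeloid cells, had the 1 higher value at the unadjusted threshold, with 727 in dystrophic and 419 in normal pools and a difference of 0.77 on the log2 scale (SE 0.15, adjusted p = 0.0552 in limma), and no overlap. The kinase gene Irak1 was the 1 lower, at -0.37 (SE 0.16). The inhibitor of NF-κB Nfkbia was at -0.04 (SE 0.23) and its partner Rela at -0.03 (SE 0.13).

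In the list of muscle thermogenesis, with 15 tested members and a median of -0.10, 1 gene was higher at the unadjusted threshold. The median was -0.029 without dystrophic replicate 3 and 0.0065 under quantile normalization. This was Dio2, which activates thyroid hormone, with 275 in dystrophic and 166 in normal pools and a difference of 0.66 on the log2 scale (SE 0.19, adjusted p = 0.199 in limma). The fast calcium pump Atp2a1 was at -0.23 (SE 0.17) and the ADP/ATP carrier Slc25a4 at -0.26 (SE 0.17). Hypoxia-induced genes had a median of -0.05 over 21 members, but 0.05 without dystrophic replicate 1, 0.014 without normal replicate 2, just above 0 without dystrophic replicate 2 and -0.10 without dystrophic replicate 3. At the unadjusted threshold 0 were higher and 3 lower, Vegfa at -0.45 (SE 0.15), the oxygen sensor Egln1 at -0.39 (SE 0.14) and the glycolytic Pgk1 at -0.35 (SE 0.16). Ldha, lactate dehydrogenase A, was at 0.09 (SE 0.12). Cell cycle genes had a median of 0.11 over 15 members, at 0.058 without normal replicate 4, 0.064 without dystrophic replicate 2, 0.18 without normal replicate 1 and 0.0043 without normal replicate 4 and dystrophic replicate 3 together, with Mcm7 higher, at 0.43 (SE 0.15), and Aurka lower, at -0.68 (SE 0.19), at the unadjusted threshold. Pcna, the sliding clamp of DNA replication, was at 0.23 (SE 0.15) and the cycle inhibitor Cdkn1a at 0.25 (SE 0.32).

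**Figure D5:**
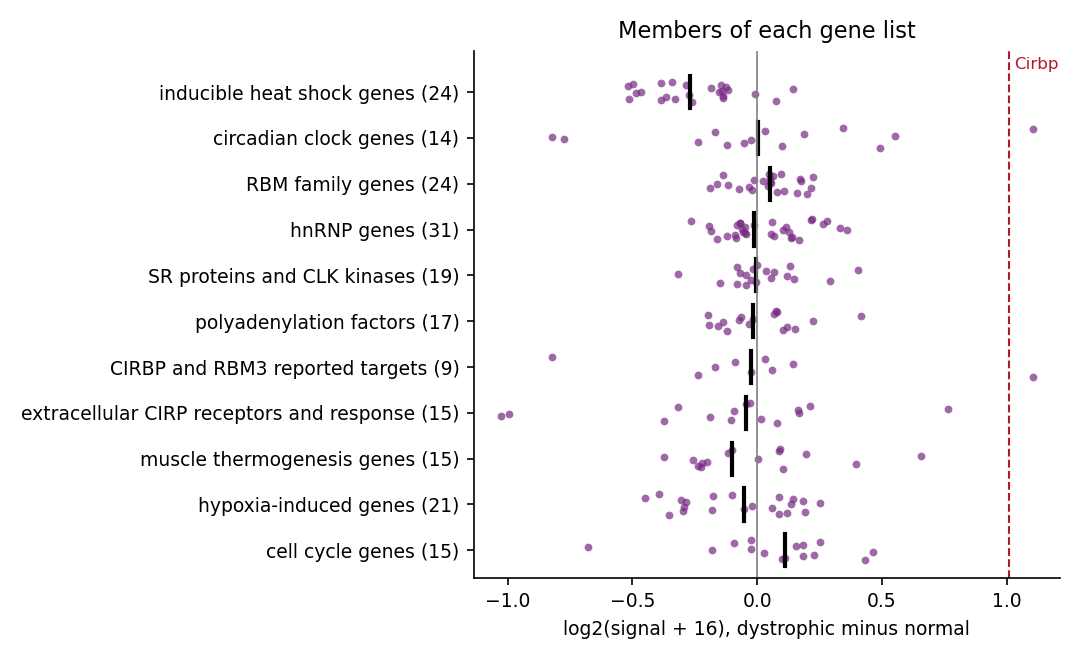
Log2 difference, dystrophic minus normal, of each tested member (points) of 11 gene lists, with the number of members after each name and a black bar at the list's median. The dashed line is the Cirbp difference of 1.01, which 1 listed gene, Dbp, exceeds at 1.11, and the heat shock genes lie mostly left of 0 with a median of -0.27.

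Diaphragm is a mixture of cells, and in whole tissue a change in the number of cells of a type cannot be told apart from a change of RNA per cell. Summed signals of 12 macrophage markers were 11938 to 14025 in dystrophic and 6960 to 9887 in normal pools, and 2 of 12 tested members rose, where 0.597% of all genes tested were called higher. Lyz2 and Csf1r were the brightest members of this sum. Adgre1, Lyz2, C1qc, Laptm5 and Mrc1 overlapped between groups, and Cd163 went the other way, at 61 to 157 in dystrophic and 139 to 185 in normal pools. Summed signals of 9 fibroblast markers were 41918 to 53901 in dystrophic and 27702 to 34580 in normal pools, and 3 of 9 rose. Of these, Col1a1, Col3a1, Dcn and Dpt overlapped between groups. Markers of regenerating muscle summed to 4048 to 6148 in dystrophic and 1565 to 1664 in normal pools over 10 genes, and 5 of 6 tested members rose. The filter that left out dim probe sets used the mean over all arrays, so this count follows in part from it. Myh3, at 629 to 1114 in dystrophic and 7.9 to 11.2 in normal pools, passed only through the dystrophic pools. So did Myh8, at 347 to 1443 in dystrophic and 47.8 to 112 in normal pools, and Ncam1, at 225 to 458 and 83.8 to 121. In the macrophage list Fcer1g and Mpeg1 also had dim normal pools, at 32.9 to 149 and 70.5 to 193, so its count carries the same limit. Of the markers not tested, Pax7 and Myf5 overlapped between groups, and Chrng and Mymk were higher in dystrophic pools. Endothelial markers summed to 4138 to 5523 in dystrophic and 5674 to 5994 in normal pools, with 0 of 8 called by limma, and each of these genes overlapped between groups. Schwann cell markers summed to 3481 to 4289 in dystrophic and 3031 to 3425 in normal pools, with 0 of 4 called. The Schwann cell sum came mostly from Pmp22, and Mbp, Mag and S100b overlapped between groups. Lymphocyte sums, at 837 to 1033 in dystrophic and 695 to 951 in normal pools, overlapped, and 2 of 9 defining genes, Cd3d and Cd4, lay under the highest negative control in every pool. Sums of adipocyte, brown adipocyte, erythroid and mesothelial markers overlapped between groups. The brown adipocyte sum came mostly from Cox8b and Cox7a1, so it says little of its dimmer members. Among those, Ucp1 lay at 7.9 to 25.7 in dystrophic and 22.4 to 203 in normal pools, with 203 and 153 in normal replicates 3 and 4. Dio2 went the other way, higher in every dystrophic pool. The part of these cell types in the Cirbp difference was not tested.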

How the data were processed

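The values the authors deposited are linear MAS5 intensities (signals), 1 per probe set and array, with MAS5 named per the submitters' processing notes and its version not given in the sources used here. Of 22690 probe sets, 64 are controls. Arrays were brought to 1 trimmed mean (2% off each end), 488, the average of the 8, because deposited trimmed means were 400.2 on normal replicate 4 and 500.2 on the others. The lowest 40% of probe sets by mean log2(signal + 16) were left out. The test was limma 3.58.1 (R 4.3.3), by lmFit and eBayes with the trend option, checked on simulated data, and p-values were adjusted over all 13575 remaining probe sets by Benjamini-Hochberg. Symbols came from GEO's platform annotation, updated by Entrez identifier with a RefSeq table of GRCm38.p6, in which 20351 of 20380 probe sets with 1 symbol matched. A gene was represented by its brightest probe set. The array is the replicate, and 4 per group limits precision. Other tables and the plots used Python 3.11.15 and matplotlib 3.10.9.

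The members and gene lists were chosen with earlier results of these data known. The naming rule took the members, the 5 genes most and 3 least alike, Lama2, and from each list up to 4 called members or else its 2 brightest. Alternatives were offsets of 1 and 64, quantile and 75th percentile scaling, values as deposited, no filter and a 60% filter, other variance models, array weights, replicate and spike-in blocks, and arrays left out.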

Additional observations from a re-analysis of the deposited data

Results flagged for a closer look

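In 66 groups of 4 pools checked on the log2 scale, 6 held a pool whose gap to the nearest other pool exceeded the share of the group's range set by Dixon's critical value, which chance exceeds in about 1 of 20 groups. The shared probe set of Rbm3 and Rbm3-ps had a signal of 1452 in normal replicate 3, against 654 to 711 in the other normal pools. Another 3 of the 6 were values of normal replicate 4. They were Hspa8 at 15204, against 9795 to 10424 in the other normal pools, Srsf5 at 5023, against 3210 to 3402, and Ctsa at 524, against 708 to 740. Atp2a1 had 28852 in dystrophic replicate 1, against 24431 to 24847 in the other dystrophic pools, and Nfkbia had 6263 there, against 8453 to 8648. Cirbp had no such pool in either group.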

How the results depend on the processing

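The Cirbp difference of 1.01 stayed above 0 in all settings, at 0.82 to 1.16 with 1 array left out. It moved by more than 1 SD only in the batch of replicate 1, at 0.58. The fit called Cirbp in 3 of 23 fits, namely with array weights, with the batch from the spike-ins as a block and without normal replicate 3. The shared probe set was at 1.30 to 1.67 with 1 array left out and at 0.91 in the batch of replicate 3, and 15 of 23 fits called it. In the fit as reported, 0.457% of all probe sets tested were called higher. Both probe sets were chosen with this comparison known, so nothing is read from these counts about either. Their relation within groups had r from 0.59 to 0.90 with 1 array left out, and among these 8 values 0.05 was passed only without normal replicate 4 (r = 0.90, exact permutation p = 0.0139, n = 7). The count of called probe sets, 67, was 25 to 61 with 1 array left out (34, 29 and 25 without dystrophic replicate 2, 3 or 4), 127 with array weights, 114 with that batch as a block, 31 without normal replicate 4 and dystrophic replicate 3 together and 6 within the batch of replicates 2 and 4. With the replicate number as a block it was 105, and the Cirbp difference was again 1.01. The numbers were not taken to pair the arrays, as deviations of same-numbered arrays correlated at 0.48, -0.05, 0.15 and 0.13 for numbers 1 to 4, and 2 of 4 dystrophic arrays correlated best with their own number.

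Of 23 named list genes and Lama2 counted together, 19 moved by over 1.5 times or turned sign with 1 array left out, all of them uncalled, and Lama2, Pabpc1, Rtn3 and Tef did not. Uncalled genes near 0 changed sign. Under quantile scaling Atp2a1 was at 0.012, Nfkbia at 0.063 and Srsf5 at 0.0090. As deposited, Nfkbia was at 0.036, Pcbp2 at 0.032, Rela at 0.051, Srsf2 at 0.036 and Srsf5 at 0.057. With array weights Nfkbia was at 0.014, Rela at 0.048 and Srsf5 at 0.030. Without normal replicate 4 and dystrophic replicate 3, Hnrnpdl was at 0.011, Nfkbia at 0.12, Rela at 0.086 and Srsf5 at 0.086. Within the batch of replicates 2 and 4, Cdkn1a was at -0.11, Pabpn1 at -0.13, Pcbp2 at 0.0065 and Rela at 0.084. With 1 array left out, ranges were -0.057 to 0.48 for Cdkn1a, -0.26 to 0.16 for Nfkbia, -0.068 to 0.22 for Nr1d2, -0.025 to 0.56 for Pabpn1, -0.081 to 0.0042 for Pcbp2, -0.038 to 0.26 for Rbm5, -0.091 to 0.047 for Rela, -0.23 to 0.12 for Srsf2 and -0.084 to 0.13 for Srsf5. Tyrobp was called with robust hyperparameters, array weights and that batch as a block. Within the batch of replicates 2 and 4 the list medians were 0.15 for clock and -0.18 for hypoxia-induced genes. The causes were not tested.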
